A study of Mus musculus with 6 samples.

Results

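The comparison set mouse bone marrow-derived macrophages given 10 µM KN93 against the same kind of cells given 5 µM, across every gene that reached 1 FPKM in at least 2 of the 4 samples at these doses. Of the 54446 entries of the deposited table, 12222 met that minimum, and 10275 of these are protein coding. FPKM, the deposited unit, is a count of fragments scaled by gene length and by library size. All cells came from bone marrow of C57BL/6 mice that were 6 weeks old. A group was 2 samples given PBS, 2 given KN93 at 5 µM or 2 given KN93 at 10 µM, with no other agent or genetic change in the labels. The table's column names for all 6 samples carry a prefix, DXM, that no label explains, so whether it marks a further agent is unknown. The length of treatment is not given in the sources used here. The labels do not state whether replicates were grown as separate cultures or from separate mice. All p-values therefore rest on how far these samples differed, and that spread may be technical.

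KN93 is a small molecule used to inhibit calcium/calmodulin-dependent protein kinase II (CaMKII), which relays calcium signals by phosphorylating many proteins, and it also acts on the related kinase CaMKIV. Bone marrow-derived macrophages are grown from marrow progenitors, take up particles and dying cells, present antigen and answer microbial and interferon signals with large changes in transcription. Interferon signals act through receptors and transcription factors on interferon-stimulated genes, while shortage of amino acids or stress of the endoplasmic reticulum acts through the transcription factor ATF4.

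The FPKM steps implied library totals of 24.2 to 28.4 in units of 1000000 fragments, so depth was similar at both doses. Across tested genes, log2(FPKM + 1) correlated at 0.991 between the 5 µM samples, at 0.990 between the 10 µM samples and at 0.975 to 0.977 between doses. The label of macrophages matched the markers: all 10 macrophage markers on the list were tested, and together they summed to 16090 and 15700 FPKM at 5 µM and 9605 and 10460 FPKM at 10 µM, with 6 of 10 called lower at 10 µM. Markers of T and NK cells, of erythroid cells and of dendritic cells each summed to under 1 FPKM in all 4 samples. Markers of B cells summed to 3.60 and 3.75 FPKM at 5 µM and 1.48 and 1.82 at 10 µM, with 1 of 5 called, lower at 10 µM, and markers of mast cells and basophils to 1.27 and 1.05 FPKM at 5 µM and 1.37 and 1.20 at 10 µM, with none called. Their part in the differences between doses was not tested. The share of fragments on mitochondrial genes was 0.565% and 0.674% at 5 µM and 0.464% and 0.378% at 10 µM. In bulk RNA, fewer cells of a type and less RNA per cell cannot be told apart.

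Most tested interferon-stimulated genes, GTPases of the interferon response and genes of class I antigen presentation and of the amino acid stress response rose at 10 µM. Complement C1q and many receptors for uptake and chemotaxis fell, as did several chemokines, neutrophil granule genes and matrix genes. At a limma adjusted p under 0.05, 2599 of 12222 genes (21.3%) differed between the doses, of which 1500 rose (12.3% of genes tested) and 1099 fell (8.99%). A change of at least 2-fold on the log2(FPKM + 1) scale, which understates change in low genes, was reached by 191 called genes (1.56%), of which 98 rose and 93 fell. Of the called genes, 63 met the minimum only through the 5 µM samples and 71 only through the 10 µM samples. The former could only be lower at 10 µM and the latter only higher. The former include 1 fallen member each of the lists of chemoattractant receptors, cholesterol synthesis, smooth muscle and stroma, and CaMK and calcium signalling. The latter include 1 risen member each of the lists of the amino acid stress response and of heat shock. None of the 2599 called genes had overlapping values between the doses, and 7851 of all 12222 genes tested also did not overlap. Called genes named below with values were chosen without overlap, so their lack of overlap is part of the choice. The median log2 change was 0.38 among genes that rose, -0.44 among genes that fell and 0.04 over all genes tested. With median-of-ratios scaling, which brings the median of all genes to -0.0004, 1099 genes rose and 1362 fell, so that 44.7% of calls were rises against 57.7%; with quantile normalization the share was 49.9%. The number called was 1134 without the first 5 µM sample, 939 without the second, 1551 without the first 10 µM sample and 1515 without the second, and 1350 when genes were tested without a minimum FPKM. No gene of the 2599 changed direction with median-of-ratios scaling or quantile normalization. The other settings could not reverse a call, because no call overlapped between doses and the minimum does not alter the fitted change.

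**Figure D1:**
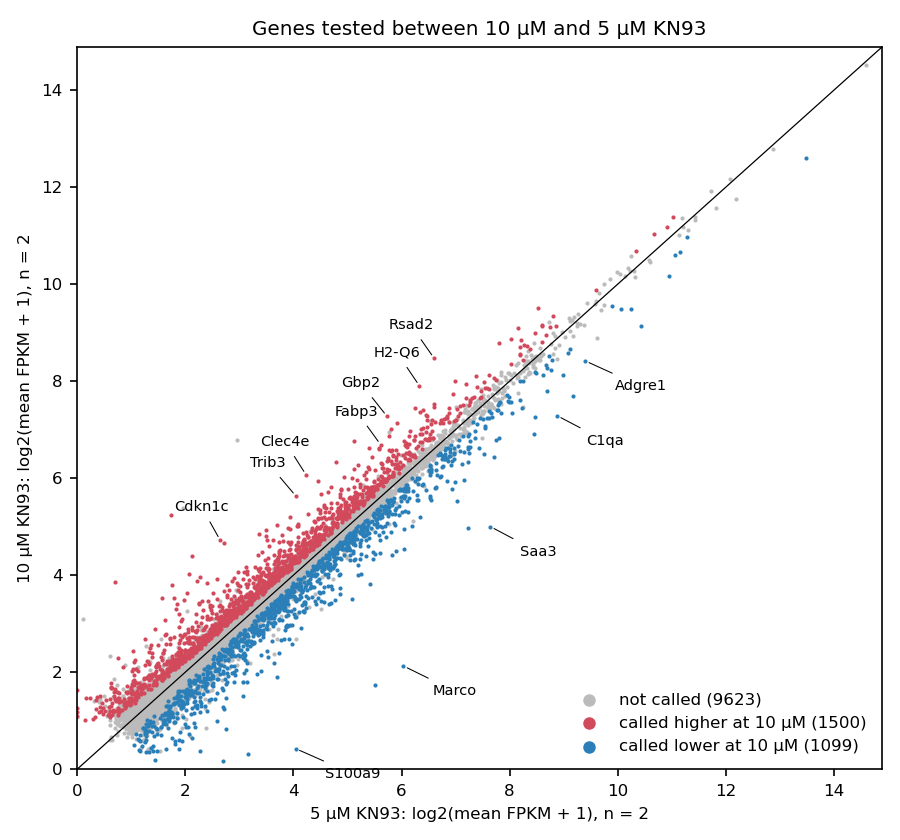
Each point is 1 of 12222 genes, with log2(mean FPKM + 1) of the 2 samples at 5 µM on the x axis and of the 2 samples at 10 µM on the y axis; red points were called higher at 10 µM (1500), blue points lower (1099), and grey points were not called. Most points lie close to the diagonal, while Marco and S100a9 lie far below it.

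Among genes with more than a predicted-gene name, the steepest fall on the log2(FPKM + 1) scale was in Marco, a scavenger receptor of macrophages that binds bacteria and particles (chromosome 1, 120474538 to 120505024, minus strand, GRCm38). Marco had 65.6 and 63.5 FPKM at 5 µM and 3.29 and 3.44 at 10 µM (log2 change -3.91, SE 0.054, limma adjusted p = 1.16e-05). In PBS-treated cells Marco measured 217 and 203 FPKM. Both 10 µM samples were thus far below both 5 µM samples, which were themselves below both PBS samples, a ratio of 19.2 between the mean FPKM at 5 µM and at 10 µM. By that ratio, S100a9 (45.6), Chil3 (43.6) and Ngp (32.9), all of few fragments at 10 µM, stood above it. Saa3, an acute phase apolipoprotein made by macrophages, showed the same order at a higher level. Saa3 measured 175 and 223 FPKM at 5 µM and 31.04 and 30.97 at 10 µM (log2 change -2.63, SE 0.18, limma adjusted p = 0.00128). In PBS it measured 628 and 445 FPKM. F13a1 had 6.07 and 5.41 FPKM at 5 µM and 0.688 and 0.883 at 10 µM (log2 change -1.92, SE 0.080, limma adjusted p = 0.000438); its product is the catalytic subunit of the clotting factor XIII. Pilra measured 12.2 and 11.5 FPKM at 5 µM and 2.87 and 2.65 at 10 µM (log2 change -1.78, SE 0.14, limma adjusted p = 0.00146); this gene encodes an inhibitory receptor of the paired immunoglobulin-like type. Nxpe5 had 4.89 and 5.16 FPKM at 5 µM and 1.22 and 0.772 at 10 µM (log2 change -1.60, SE 0.11, limma adjusted p = 0.00127). F13a1, Pilra and Nxpe5 were each lower in both 10 µM samples than in either 5 µM sample and highest with PBS. The other genes among the 12 largest falls were S100a9, Ngp, Chil3, Ccl6 and Ccl9, described with their groups, the pseudogene Rpl15-ps3 and the short Mir7240. F13a1, S100a9, Ngp, Chil3 and Mir7240 were under 1 FPKM in both 10 µM samples. They met the minimum through the 5 µM samples alone and so could only have been lower at 10 µM. Rpl15-ps3 differed between its own replicates at 5 µM (65.1 and 23.4 FPKM, against 2.83 and 1.83 at 10 µM and 2.96 and 2.12 with PBS), and as a processed pseudogene it can share fragments with other copies of Rpl15, so its value is uncertain. Mir7240 rested on 6 and 6 fragments at 5 µM and 0 and 1 at 10 µM, and its call was lost with a pseudocount of 0.1 FPKM (limma adjusted p = 0.0751) and without the first or the second 5 µM sample.

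Among genes with more than a predicted-gene name, the steepest rise on the log2(FPKM + 1) scale was in Cox6a2, the muscle-type form of a cytochrome c oxidase subunit (chromosome 7, 128205435 to 128206387, minus strand, GRCm38). Cox6a2 measured 3.29 and 3.396 FPKM at 5 µM and 19.6 and 20.3 at 10 µM (log2 change 2.27, SE 0.077, limma adjusted p = 0.000294). PBS-treated cells had 1.15 and 1.45 FPKM, so the order was PBS, 5 µM, 10 µM with no overlap. Cdkn1c encodes p57, an inhibitor of cyclin-dependent kinases. Cdkn1c had 5.05 and 5.45 FPKM at 5 µM and 21.3 and 29.4 at 10 µM (log2 change 2.06, SE 0.20, limma adjusted p = 0.00278). Ptgir measured 5.64 and 5.43 FPKM at 5 µM and 23.1 and 25.3 at 10 µM (log2 change 1.95, SE 0.084, limma adjusted p = 0.000451); it encodes the prostacyclin receptor. Sh2d6 had 2.49 and 1.43 FPKM at 5 µM and 10.3 and 10.9 at 10 µM (log2 change 1.99, SE 0.17, limma adjusted p = 0.00192). Both samples at 10 µM stood above both at 5 µM for each of these genes, and the 5 µM samples stood above PBS (0.966 and 1.73 FPKM for Cdkn1c, 2.49 and 2.03 for Ptgir and 0.257 and 0.264 for Sh2d6). Vnn3, a pantetheinase of the vanin family, differed in that PBS and 5 µM values lay together. Vnn3 measured 2.35 and 2.59 FPKM at 5 µM and 10.7 and 10.4 at 10 µM (log2 change 1.74, SE 0.097, limma adjusted p = 0.000838), with 2.54 and 1.97 FPKM in PBS. Orm1 had 4.36 and 2.98 FPKM at 5 µM and 10.7 and 16.6 at 10 µM (log2 change 1.63, SE 0.22, limma adjusted p = 0.00707); it encodes an acute phase plasma protein, and its close family members can share fragments. Clec4e, Rsad2, Cmpk2, Gbp5 and Cxcl10 complete the protein-coding genes of the 12 largest rises and are described with their groups. The last of the 12, Mir763, is annotated on chromosome 10 (120447991 to 120448110, minus strand) and had 0 fragments in both 5 µM samples and 7 and 6 at 10 µM, too few for a fold. It met the minimum through the 10 µM samples alone, so it could only have been higher there.

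**Figure D2:**
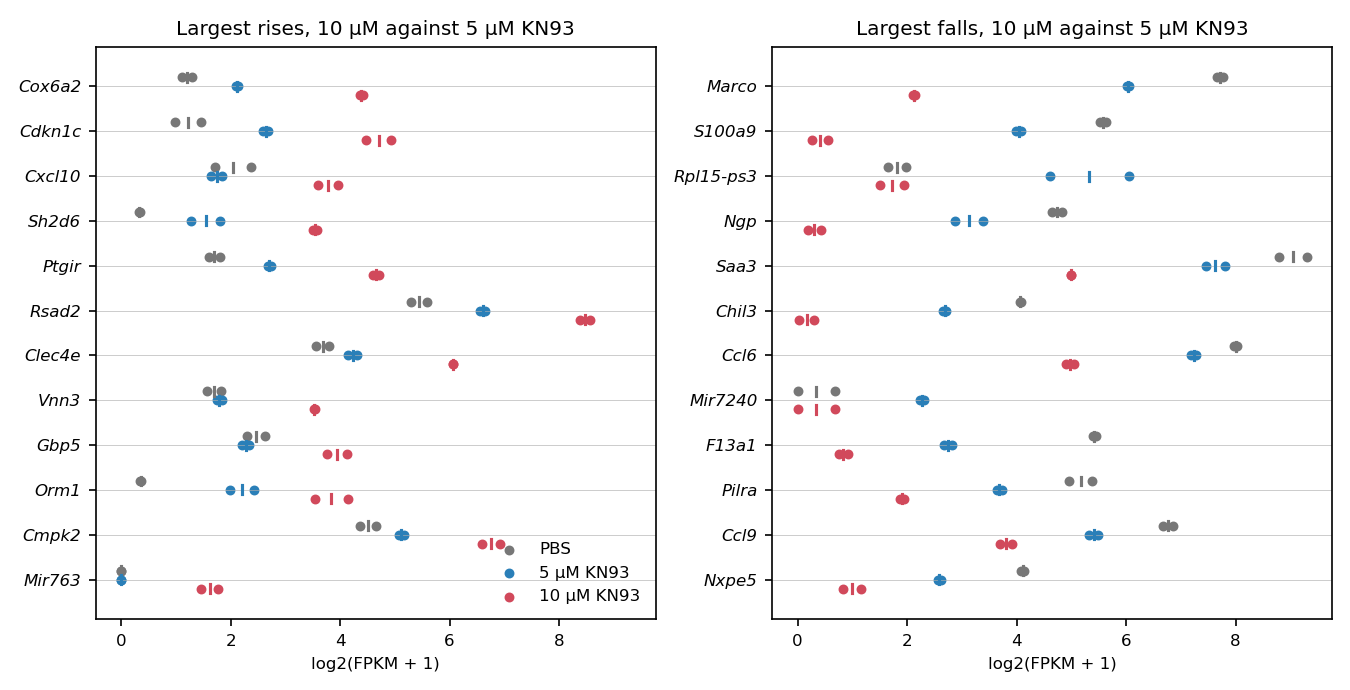
Points are single samples (2 per group) on a log2(FPKM + 1) axis for the 12 genes that rose most and the 12 that fell most between the doses, predicted-gene names left out, and short bars are group means. The 24 genes were chosen among calls without overlap, so red points (10 µM) and blue points (5 µM) are apart by that choice. For Vnn3, Gbp5, Cxcl10 and Mir763 the blue points lie among or beside the grey PBS points.

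Most tested interferon-stimulated genes rose at 10 µM. Of 46 tested members of the list, 41 rose and 1 fell, with a median log2 change of 0.52 against 0.04 over all genes. Promoters of 4 of the risen genes, the members of this list and of the GTPase list with the smallest p among those holding the motif upstream of the start, are printed from RefSeq (GRCm38.p6), each as 51 bases on the strand of the gene, 5′ to 3′. Capitals mark each copy of the core of the interferon-stimulated response element, GAAANNGAA, or of its reverse complement.
Rsad2, chr12:26456542-26456592, minus strand: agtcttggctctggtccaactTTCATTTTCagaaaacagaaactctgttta
Ifit1, chr19:34640784-34640834, plus strand: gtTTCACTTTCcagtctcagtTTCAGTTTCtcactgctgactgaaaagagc
Gbp3, chr3:142559985-142560035, plus strand: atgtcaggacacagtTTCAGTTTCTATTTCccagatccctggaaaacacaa
Gbp2, chr3:142620584-142620634, plus strand: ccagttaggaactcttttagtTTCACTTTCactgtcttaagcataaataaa
The copy nearest the start begins 119, 84, 38 and 58 bases before it in Rsad2, Ifit1, Gbp3 and Gbp2. The windows of Ifit1 and Gbp3 hold 2 copies each, with the farther one beginning 103 and 44 bases before the start and the copies of Gbp3 overlapping. Searched on both strands from 250 bases before to 50 after the start, it was present for 19 of 30 risen interferon-stimulated genes with a promoter in the table (63.3%), for 2 of 4 not called and for 767 of all 8487 tested genes with a promoter (9.04%). A match is a description of the letters and not evidence of binding.

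Rsad2 encodes viperin, an antiviral enzyme, and had the largest rise of the list. Rsad2 measured 92.6 and 99.6 FPKM at 5 µM and 377 and 331 at 10 µM (log2 change 1.87, SE 0.12, limma adjusted p = 0.000983). Its PBS values were 47.02 and 38.1 FPKM. Cmpk2, its neighbour in the genome and a nucleotide kinase of mitochondria, changed alike. Cmpk2 had 32.7 and 34.7 FPKM at 5 µM and 119 and 95.1 at 10 µM (log2 change 1.63, SE 0.14, limma adjusted p = 0.00192). Ifit1 measured 74.4 and 76.01 FPKM at 5 µM and 178 and 168 at 10 µM (log2 change 1.19, SE 0.082, limma adjusted p = 0.00127); its product binds viral RNA that lacks host cap marks, and fragments may be shared within the Ifit family. For Ifit1 the 5 µM samples were only slightly above PBS (65.8 and 56.2 FPKM), and both 10 µM samples stood well above. Phf11d had 24.4 and 25.2 FPKM at 5 µM and 55.7 and 54.8 at 10 µM (log2 change 1.12, SE 0.078, limma adjusted p = 0.00127). Samd9l measured 37.7 and 39.3 FPKM at 5 µM and 68.7 and 63.7 at 10 µM (log2 change 0.77, SE 0.055, limma adjusted p = 0.00139); the gene is a restriction factor, and its 5 µM values were close to PBS (36.3 and 35.3 FPKM). Among the other risen members were the transcription factors Stat2 and Irf7, the RNA sensors Ddx58, Ifih1 and Dhx58, and Isg15, Mx1, Mx2 and Oas2. The 1 member that fell was Ifi27l2a, with a log2 change of -0.53, named after its value was seen. The number of risen members was 26 without the first and 26 without the second 5 µM sample.

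The interferon-inducible GTPases, which attack vacuoles holding microbes, had the largest median rise of the lists with at least 5 tested members, 0.89 on the log2 scale. Of 15 tested, 14 rose and none fell. Gbp2 had 52.7 and 51.5 FPKM at 5 µM and 160.4 and 147 at 10 µM (log2 change 1.54, SE 0.12, limma adjusted p = 0.00143). Gbp3 measured 26.2 and 26.8 FPKM at 5 µM and 82.8 and 76.7 at 10 µM (log2 change 1.55, SE 0.091, limma adjusted p = 0.000931). PBS values were 46.2 and 36.2 FPKM for Gbp2 and 23.5 and 19.6 for Gbp3, so for both genes PBS and 5 µM lay near each other and 10 µM stood apart. Gbp5 had 3.603 and 4.07 FPKM at 5 µM and 16.5 and 12.6 at 10 µM (log2 change 1.68, SE 0.16, limma adjusted p = 0.00259); for this gene, whose product promotes inflammasome assembly, the PBS values (5.19 and 3.89 FPKM) overlapped those at 5 µM. Gbp6 measured 5.66 and 6.05 FPKM at 5 µM and 13.4 and 12.2 at 10 µM (log2 change 1.01, SE 0.084, limma adjusted p = 0.00192). Ifi47 had 48.3 and 48.98 FPKM at 5 µM and 78.3 and 77.01 at 10 µM (log2 change 0.66, SE 0.062, limma adjusted p = 0.00258), and here PBS (62.5 and 55.9 FPKM) was above 5 µM. The family is made of close copies, so fragments may be shared between members. The response element core was present for 8 of 9 risen members with a promoter (88.9%).

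Most tested genes of class I antigen presentation rose at 10 µM, and most of class II were not called. Of 25 tested class I genes, 19 rose and 2 fell, H2-M2 and Calr, with a median log2 change of 0.35. H2-Q6, H2-Q7 and H2-Q4 encode nonclassical class I chains. H2-Q6 measured 78.9 and 80.1 FPKM at 5 µM and 241 and 235 at 10 µM (log2 change 1.57, SE 0.043, limma adjusted p = 0.000244). H2-Q7 had 56.7 and 62.5 FPKM at 5 µM and 136 and 142 at 10 µM (log2 change 1.21, SE 0.060, limma adjusted p = 0.000586). H2-Q4 measured 121 and 129.7 FPKM at 5 µM and 258 and 254 at 10 µM (log2 change 1.02, SE 0.071, limma adjusted p = 0.00127). In each case the order from low to high was PBS (30.1 and 29.6, 22.3 and 21.8 and 87.8 and 78.2 FPKM), 5 µM, 10 µM with no overlap, though fragments may be shared between these near copies. Tapbpl had 24.2 and 25.7 FPKM at 5 µM and 43.3 and 44.3 at 10 µM (log2 change 0.79, SE 0.048, limma adjusted p = 0.000983); it edits the peptides loaded on class I. Risen members also included the classical chains H2-K1 and H2-D1, the peptide transporters Tap1 and Tap2, the immunoproteasome subunits Psmb8, Psmb9 and Psmb10, and Nlrc5, the class I transactivator. The count of risen members was 11 without the first or the second 5 µM sample and 12 without a minimum FPKM, and none fell in either case. Of 11 class II genes tested, 2 rose and 3 fell, with a median of 0.07; without the first or the second 5 µM sample, or a minimum FPKM, none rose, and 1 rose without the first or the second 10 µM sample. Ciita, 1 of the 2 class II genes that rose, met the minimum through the 10 µM samples alone, so it could only have been higher there. Lgmn measured 520.4 and 558 FPKM at 5 µM and 387 and 375 at 10 µM (log2 change -0.50, SE 0.066, limma adjusted p = 0.00651). Ifi30 had 227 and 227 FPKM at 5 µM and 154 and 168 at 10 µM (log2 change -0.49, SE 0.056, limma adjusted p = 0.0042). Both encode lysosomal enzymes that prepare antigen for class II.

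Genes of inflammation and costimulation changed in both directions. Of 35 tested, 13 rose and 5 fell, with a median log2 change of 0.19. Cd86 measured 10.8 and 9.79 FPKM at 5 µM and 27.6 and 26.4 at 10 µM (log2 change 1.31, SE 0.081, limma adjusted p = 0.000983); it encodes a ligand that costimulates T cells through CD28. Cd274 had 91.1 and 101 FPKM at 5 µM and 196 and 171 at 10 µM (log2 change 0.92, SE 0.084, limma adjusted p = 0.00235); its product, PD-L1, restrains T cells. Both were higher in each 10 µM sample than in either 5 µM sample, while Cd80, the partner of Cd86 in costimulation, was among the genes that fell. Casp1 measured 33.6 and 35.2 FPKM at 5 µM and 50.7 and 52.9 at 10 µM (log2 change 0.58, SE 0.058, limma adjusted p = 0.00313); the protease matures interleukin-1β. Tnf, Cd40, Ptgs2 and the NF-κB subunits Rela and Relb also rose, and Nlrp3, Socs3, Vcam1 and Saa3 fell. Rises numbered 6 without the first or the second 5 µM sample, 8 without the first 10 µM sample and 7 without a minimum FPKM, and falls numbered 3 without the first or the second 10 µM sample, without a minimum FPKM and with a minimum of 5 FPKM. Of 24 genes of pattern recognition, 4 rose and 5 fell (2 without the first or the second 5 µM sample or without a minimum FPKM), among the latter Cd14, the co-receptor for lipopolysaccharide. Cd14 had 88.2 and 71.01 FPKM at 5 µM and 33.1 and 38.2 at 10 µM (log2 change -1.13, SE 0.12, limma adjusted p = 0.00327). The counts of both lists stand beside 12.3% of all tested genes that rose and 8.99% that fell.

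Most tested genes of the amino acid stress response rose at 10 µM. Of 38 tested members, 28 rose and none fell, and on the deposited scale all 38 had a higher fitted value, with a median log2 change of 0.50. Atf4 is the transcription factor at the head of this response. Atf4 measured 81.5 and 78.8 FPKM at 5 µM and 159.7 and 167 at 10 µM (log2 change 1.02, SE 0.047, limma adjusted p = 0.000525). PBS-treated cells had 50.98 and 50.7 FPKM. Ddit3 had 55.6 and 54.2 FPKM at 5 µM and 129 and 128 at 10 µM (log2 change 1.22, SE 0.053, limma adjusted p = 0.000451); it encodes CHOP, a factor induced by ATF4, and PBS values were 18.1 and 16.7 FPKM. Trib3 measured 16.1 and 14.9 FPKM at 5 µM and 48.8 and 48.1 at 10 µM (log2 change 1.58, SE 0.052, limma adjusted p = 0.000294); its product is a pseudokinase that restrains ATF4, and PBS values were 8.03 and 8.04 FPKM. For Atf4, Ddit3 and Trib3 both 10 µM samples were above both 5 µM samples, and those were above PBS. Mthfd2 had 20.7 and 20.9 FPKM at 5 µM and 40.03 and 40.6 at 10 µM (log2 change 0.92, SE 0.053, limma adjusted p = 0.000896); the enzyme belongs to the folate cycle of mitochondria. Risen members included the aminoacyl-tRNA synthetases Aars, Cars, Eprs, Gars, Sars, Tars and Wars, the serine metabolism genes Phgdh and Shmt2, the amino acid transporters Slc7a1, Slc7a11 and Slc38a2, and Chac1, Atf3, Gdf15 and Fgf21. Promoters of Asns, asparagine synthetase, and Aars, alanyl-tRNA synthetase, are printed for the motif known for ATF4 binding, in capitals, TGATGNAA or its reverse complement.
Asns, chr6:7693210-7693260, minus strand: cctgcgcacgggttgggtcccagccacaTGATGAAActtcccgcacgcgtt
Aars, chr8:111033709-111033759, plus strand: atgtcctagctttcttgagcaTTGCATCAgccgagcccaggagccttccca
Searched on both strands, the motif was present for 10 of 26 risen members (38.5%), for 3 of 7 not called (42.9%) and for 2.83% of all tested genes with a promoter.

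Some genes of other stress programmes rose. Of 30 tested targets of NRF2, the regulator of antioxidant genes, 12 rose and none fell, with a median of 0.30. Slc7a11 measured 4.54 and 3.41 FPKM at 5 µM and 10.8 and 9.24 at 10 µM (log2 change 1.15, SE 0.15, limma adjusted p = 0.00635); it imports cystine for glutathione synthesis. Sqstm1 had 273 and 246 FPKM at 5 µM and 458 and 471 at 10 µM (log2 change 0.84, SE 0.071, limma adjusted p = 0.00192); its product p62 is an autophagy receptor. Srxn1 measured 43.5 and 38.2 FPKM at 5 µM and 72.2 and 74.8 at 10 µM (log2 change 0.83, SE 0.075, limma adjusted p = 0.00229); sulfiredoxin repairs oxidised peroxiredoxins. PBS values of Slc7a11, Sqstm1 and Srxn1 were 1.100 and 1.56, 134 and 144 and 24.5 and 26.4 FPKM, below both doses. The NRF2 count was 4 without the second 5 µM sample, 6 without the second 10 µM sample and 4 without a minimum FPKM. Of 20 tested heat shock genes, 12 rose and none fell. Hspa8 had 317 and 295 FPKM at 5 µM and 429 and 427 at 10 µM (log2 change 0.48, SE 0.055, limma adjusted p = 0.00432). It encodes the constitutive HSP70 chaperone and had 367 and 368 FPKM in PBS. The heat shock count was 6 without the first and 1 without the second 5 µM sample, 5 and 4 without the first and the second 10 µM sample, and 6 without a minimum FPKM. Of 24 tested p53 targets, 11 rose and 1 fell. Bbc3 measured 7.63 and 7.17 FPKM at 5 µM and 13.1 and 15.3 at 10 µM (log2 change 0.86, SE 0.086, limma adjusted p = 0.00312); it encodes PUMA, which promotes cell death. Plk2 had 21.2 and 20.7 FPKM at 5 µM and 36.5 and 34.2 at 10 µM (log2 change 0.73, SE 0.059, limma adjusted p = 0.00175); it encodes a polo-like kinase. Sesn1 measured 13.5 and 13.9 FPKM at 5 µM and 6.86 and 6.79 at 10 µM (log2 change -0.91, SE 0.052, limma adjusted p = 0.000875). It was the 1 member that fell, whereas its relative Sesn2 rose. Sesn2 had 16.6 and 15.4 FPKM at 5 µM and 26.02 and 26.7 at 10 µM (log2 change 0.69, SE 0.054, limma adjusted p = 0.00156). The p53 count of rises was 5 without the first or the second 5 µM sample, 6 without the second 10 µM sample and 6 without a minimum FPKM.

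Most tested genes of complement and engulfment fell at 10 µM. Of 29 tested members, 19 fell and 2 rose, with a median log2 change of -0.52. C1qa, C1qb and C1qc encode the chains of C1q, which tags microbes and dying cells. C1qa measured 478 and 461 FPKM at 5 µM and 148 and 162 at 10 µM (log2 change -1.59, SE 0.063, limma adjusted p = 0.000438). C1qc had 571 and 578 FPKM at 5 µM and 204 and 205 at 10 µM (log2 change -1.49, SE 0.050, limma adjusted p = 0.000294). C1qb measured 1381 and 1389 FPKM at 5 µM and 547 and 579 at 10 µM (log2 change -1.30, SE 0.062, limma adjusted p = 0.000538). PBS values were 1091 and 1097 FPKM for C1qa, 921 and 891 for C1qc and 2234 and 2158 for C1qb, so each chain was lowest at 10 µM and highest with PBS, without overlap. Itgam had 25.6 and 24.2 FPKM at 5 µM and 12.5 and 12.9 at 10 µM (log2 change -0.92, SE 0.059, limma adjusted p = 0.00106); it encodes CD11b, a chain of complement receptor 3. Among the other members that fell were Itgb2, Itgax, Mertk, Gas6, Pros1, Fcgr2b, Fcgr3, C3, Cfb and Cfp. The 2 that rose were Axl, a receptor for dying cells of the same family as Mertk, and Itgb3. Itgb3 measured 2.02 and 2.13 FPKM at 5 µM and 7.37 and 7.44 at 10 µM (log2 change 1.45, SE 0.064, limma adjusted p = 0.000451), and PBS values were 1.62 and 1.48 FPKM. At least 15 members fell without any 1 of the 4 KN93 samples, and 1 rose without the first 5 µM, the second 5 µM or the first 10 µM sample. The summed level of the 10 macrophage markers, given above, was lower at 10 µM in the same samples, and its part in these falls was not tested.

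Scavenger receptors and C-type lectins included falls and rises. Of 18 tested, 9 fell and 3 rose, with a median of -0.39; falls numbered 4 without the first and 5 without the second 5 µM sample, and 4 without a minimum FPKM. Marco, described above, fell, and Clec4e, which encodes Mincle, a receptor for mycobacterial glycolipids, was among the largest rises. Clec4e had 18.9 and 16.7 FPKM at 5 µM and 66.1 and 65.9 at 10 µM (log2 change 1.83, SE 0.094, limma adjusted p = 0.000614), with 12.9 and 10.8 FPKM in PBS. Ly75 measured 3.51 and 3.97 FPKM at 5 µM and 9.898 and 9.56 at 10 µM (log2 change 1.18, SE 0.074, limma adjusted p = 0.00101); it encodes DEC-205. Clec4a2 had 14.1 and 15.4 FPKM at 5 µM and 5.16 and 4.74 at 10 µM (log2 change -1.41, SE 0.12, limma adjusted p = 0.00187); this lectin carries an inhibitory motif. Mrc1 measured 37.5 and 36.2 FPKM at 5 µM and 16.9 and 13.5 at 10 µM (log2 change -1.23, SE 0.10, limma adjusted p = 0.00193); the mannose receptor is also a marker of alternative activation. Of 13 tested genes of alternative activation, 8 fell and 1 rose. Of the 8, 2 (Chil3 and Arg1) met the minimum through the 5 µM samples alone, so they could only have been lower at 10 µM. Chil3 had 5.56 and 5.33 FPKM at 5 µM and 0.228 and 0.0216 at 10 µM (log2 change -2.52, SE 0.096, limma adjusted p = 0.000438). It encodes a chitinase-like protein also made by neutrophils, and its fragments numbered 239 and 241 at 5 µM and 9 and 1 at 10 µM. Folr2 measured 25.3 and 25.1 FPKM at 5 µM and 11.6 and 12.8 at 10 µM (log2 change -0.99, SE 0.11, limma adjusted p = 0.00432); it encodes a folate receptor of macrophages. Arg1, arginase 1, measured 3.60 and 2.02 FPKM at 5 µM and 0.557 and 0.427 at 10 µM, and its call was lost without the second 10 µM sample (limma adjusted p = 0.0502). Falls of this list numbered 5, 4 and 5 without the first 5 µM, the second 5 µM and the second 10 µM sample, and 5 without a minimum FPKM.

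Among chemokines and receptors for chemoattractants, more genes fell than rose. Of 15 tested chemokines, 5 fell, 2 rose and 8 were not called, beside 8.99% of all tested genes that fell and 12.3% that rose. Ccl6 had 155 and 145 FPKM at 5 µM and 32.2 and 28.9 at 10 µM (log2 change -2.26, SE 0.068, limma adjusted p = 0.000244). Ccl9 measured 44.04 and 39.1 FPKM at 5 µM and 14.01 and 12 at 10 µM (log2 change -1.61, SE 0.10, limma adjusted p = 0.00103). Both are chemokines of myeloid cells, and both were lower in each 10 µM sample than in either 5 µM sample; in PBS they had 251 and 260.3 and 114 and 102 FPKM. Pf4 had 390.1 and 308 FPKM at 5 µM and 119.5 and 121 at 10 µM (log2 change -1.52, SE 0.12, limma adjusted p = 0.00158); it encodes platelet factor 4, and PBS values were 915 and 1019.6 FPKM. Cxcl10, a chemokine induced by interferon that attracts T cells, went the other way. Cxcl10 measured 2.12 and 2.58 FPKM at 5 µM and 14.5 and 11.1 at 10 µM (log2 change 2.03, SE 0.23, limma adjusted p = 0.00445), and its PBS values, 4.16 and 2.27 FPKM, overlapped those at 5 µM. Cxcl9 also rose, but it met the minimum through the 10 µM samples alone, so it could only have been higher there. Of the chemokines, 3 fell and 1 rose when tested without a minimum FPKM, and 1 rose without the first 5 µM, the second 5 µM or the first 10 µM sample. Of 17 tested receptors, 10 fell and 2 rose, with a median of -0.60. C5ar1 had 116 and 112 FPKM at 5 µM and 64.00 and 56.8 at 10 µM (log2 change -0.91, SE 0.067, limma adjusted p = 0.00143); it is the receptor for complement fragment C5a. P2ry6 measured 64.5 and 66.8 FPKM at 5 µM and 38.2 and 39.7 at 10 µM (log2 change -0.74, SE 0.047, limma adjusted p = 0.00106); it senses nucleotides released by damaged cells. Cx3cr1, Ccr1, Fpr1, Cmklr1 and C5ar2 fell too. Ccrl2 had 21.1 and 20.97 FPKM at 5 µM and 57.02 and 63.00 at 10 µM (log2 change 1.47, SE 0.059, limma adjusted p = 0.000438); this receptor binds chemerin without signalling and had 7.25 and 7.36 FPKM in PBS. S1pr2 measured 19.1 and 19.4 FPKM at 5 µM and 29.5 and 29.4 at 10 µM (log2 change 0.59, SE 0.043, limma adjusted p = 0.00141); it is a receptor for sphingosine-1-phosphate. At least 8 receptors fell without any 1 of the 4 KN93 samples.

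Of 17 genes of neutrophil granules, 9 were above the minimum, and of these 9, 7 fell and none rose. Of the 7, 4 met the minimum through the 5 µM samples alone, so they could only have been lower at 10 µM, and the count describes the tested members only. S100a9 had 14.98 and 15.97 FPKM at 5 µM and 0.475 and 0.203 at 10 µM (log2 change -3.63, SE 0.11, limma adjusted p = 0.000244). It encodes a subunit of calprotectin. Its fragments numbered 206 and 231 at 5 µM and 6 and 3 at 10 µM, and PBS values were 45.3 and 48.9 FPKM. Ngp measured 6.34 and 9.48 FPKM at 5 µM and 0.135 and 0.346 at 10 µM (log2 change -2.83, SE 0.18, limma adjusted p = 0.00106); fragments numbered 204 and 321 at 5 µM and 4 and 12 at 10 µM. Mmp8 had 26.2 and 23.4 FPKM at 5 µM and 9.43 and 10.1 at 10 µM (log2 change -1.26, SE 0.069, limma adjusted p = 0.000786); for this collagenase PBS (21.9 and 21.3 FPKM) was slightly below 5 µM. Mmp9 measured 36.4 and 34.7 FPKM at 5 µM and 16.9 and 18.3 at 10 µM (log2 change -0.98, SE 0.059, limma adjusted p = 0.000983). For S100a9 and Ngp the levels at 10 µM were near the limit of detection, and both 5 µM samples were below PBS. The 8 neutrophil markers summed to 37.0 and 42.7 FPKM at 5 µM and 5.22 and 7.31 at 10 µM, with Elane at 0 in all 4 samples; whether these transcripts come from macrophages or from other cells in the culture was not tested.

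**Figure D3:**
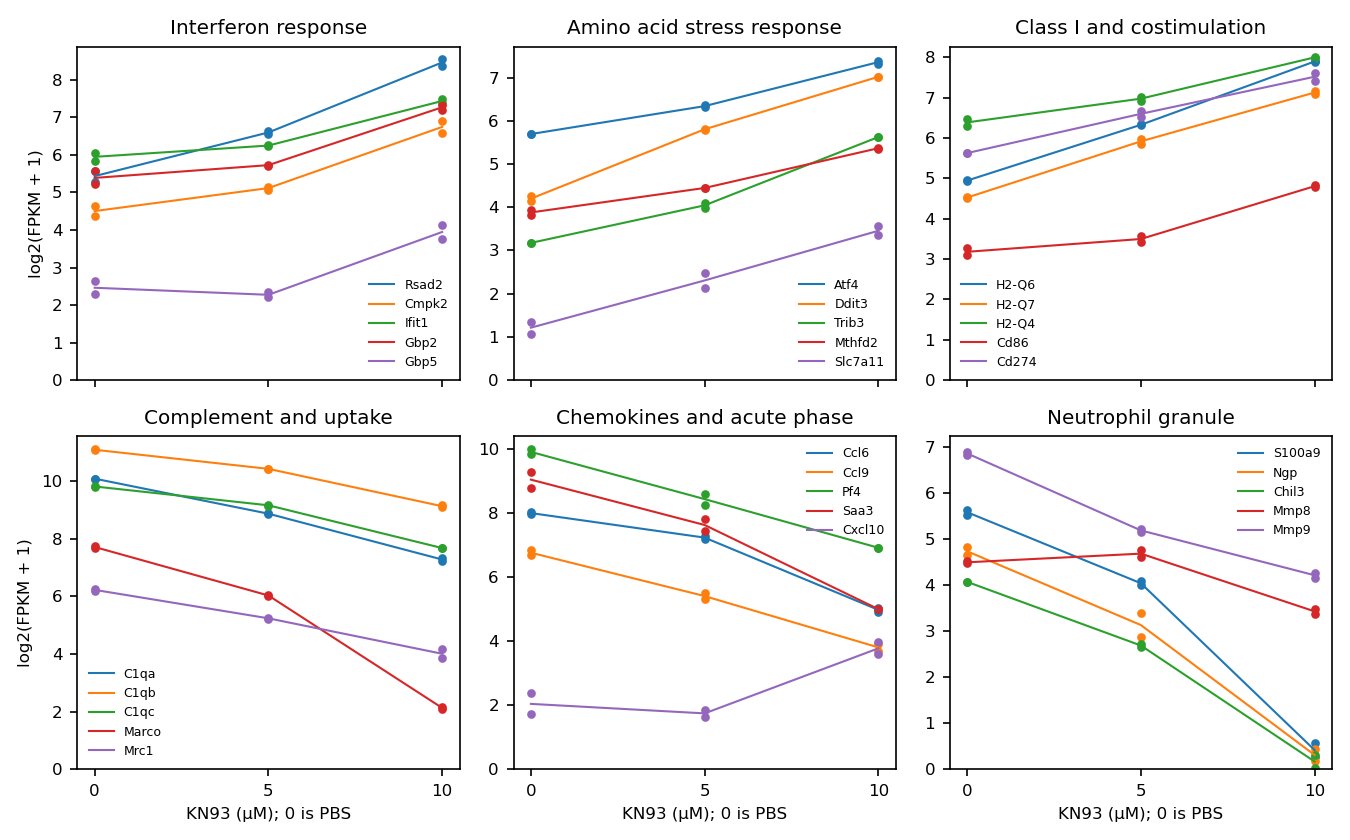
Points are single samples and lines join group means on the log2(FPKM + 1) scale, for PBS (0), 5 µM and 10 µM, with 5 named genes in each of 6 panels that were chosen after their values were seen. Genes of the upper panels are highest at 10 µM; in the lower panels all genes except Cxcl10 are lowest there, and Mmp8 is about as high at 5 µM as with PBS.

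Some markers of macrophage identity fell. Of 30 tested, 13 fell and 3 rose, with a median of -0.13, beside 8.99% of all tested genes that fell and 12.3% that rose. Adgre1 had 649.8 and 699 FPKM at 5 µM and 343 and 338.5 at 10 µM (log2 change -0.98, SE 0.083, limma adjusted p = 0.00193); it encodes F4/80, and PBS values were 1049 and 913 FPKM. Aif1 measured 59.9 and 57.4 FPKM at 5 µM and 21.3 and 22.1 at 10 µM (log2 change -1.40, SE 0.064, limma adjusted p = 0.000519); it encodes the calcium-binding protein IBA1. Maf had 41.8 and 44.4 FPKM at 5 µM and 22.6 and 19.97 at 10 µM (log2 change -0.99, SE 0.069, limma adjusted p = 0.00128); the transcription factor maintains resident macrophages. Csf1r, Irf8, Tyrobp and Lyz2 also fell, while Lgals3, Cebpb and Klf4 rose; the rises numbered 2 without the first 5 µM sample and none without any 1 of the other 3 KN93 samples, none without a minimum FPKM, and 1 with median-of-ratios scaling or with the 4 KN93 samples alone.

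Some genes of extracellular matrix and of contractile stromal cells fell. Of 29 tested matrix genes, 14 fell, 15 were not called and none rose, with a median of -0.47. Thbs1 measured 215 and 200.3 FPKM at 5 µM and 100.2 and 71.1 at 10 µM (log2 change -1.29, SE 0.16, limma adjusted p = 0.00572); thrombospondin 1 is a matrix glycoprotein, and it had 956 and 1082 FPKM in PBS. Ctgf had 73.8 and 71.1 FPKM at 5 µM and 29.7 and 32.4 at 10 µM (log2 change -1.20, SE 0.087, limma adjusted p = 0.0014); connective tissue growth factor is a matricellular protein. Thbs2 measured 14.6 and 9.94 FPKM at 5 µM and 4.35 and 4.12 at 10 µM (log2 change -1.32, SE 0.16, limma adjusted p = 0.00502). Values of Thbs1, Ctgf and Thbs2 were lowest in both 10 µM samples and highest with PBS. Col1a1, Col1a2, Col3a1, Fn1 and Sparc were among the others that fell. The matrix falls numbered 6 without the first 5 µM sample, 7 without the second 10 µM sample, when 2 members also rose, and 6 without a minimum FPKM. Of 18 metalloproteinases, their inhibitors and related proteases, 8 fell and none rose. Adam8 had 226 and 202 FPKM at 5 µM and 115 and 103 at 10 µM (log2 change -0.96, SE 0.086, limma adjusted p = 0.00228); it encodes a membrane-bound protease. Of 15 smooth muscle and stromal genes, 6 fell and none rose, and this count was 3 without the first 5 µM sample, 3 and 2 without the first and the second 10 µM sample and 2 without a minimum FPKM. Acta2 measured 149 and 128 FPKM at 5 µM and 74.5 and 79.3 at 10 µM (log2 change -0.84, SE 0.080, limma adjusted p = 0.00266); it encodes smooth muscle actin, and PBS values were 657 and 672 FPKM. The 10 fibroblast and smooth muscle markers summed to 580.9 and 483.6 FPKM at 5 µM and 344.5 and 321.5 at 10 µM, and the part of such cells in these falls was not tested.

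Of 24 tested genes of cholesterol synthesis, 12 fell, 12 were not called and none rose, with a median of -0.23. Dhcr7 had 8.43 and 8.11 FPKM at 5 µM and 5.31 and 5.15 at 10 µM (log2 change -0.57, SE 0.051, limma adjusted p = 0.00228); it catalyses the last step of the pathway. Srebf2 measured 26.01 and 25.4 FPKM at 5 µM and 20.1 and 19.1 at 10 µM (log2 change -0.38, SE 0.047, limma adjusted p = 0.00558); it encodes SREBP2, the factor that drives these genes. Without the first or the second 5 µM sample 2 members fell, without the first and the second 10 µM sample 6 and 4, without a minimum FPKM 4, with no intensity trend 7 and with the 4 KN93 samples alone 3. Of 13 tested targets of LXR, the receptor that senses oxidised sterols, 7 fell and none rose, with a median of -0.40. Abca1 had 31.98 and 33.9 FPKM at 5 µM and 10.8 and 9.79 at 10 µM (log2 change -1.59, SE 0.070, limma adjusted p = 0.000451); it exports cholesterol to apolipoproteins, and PBS values were 69.4 and 75.4 FPKM. Pltp measured 148 and 155 FPKM at 5 µM and 85.7 and 95.3 at 10 µM (log2 change -0.74, SE 0.065, limma adjusted p = 0.00221); it transfers phospholipids between lipoproteins. Arl4c had 13.7 and 13.4 FPKM at 5 µM and 6.21 and 7.32 at 10 µM (log2 change -0.91, SE 0.11, limma adjusted p = 0.00485). Falls of LXR targets numbered 4 without the first 5 µM, the second 5 µM or the first 10 µM sample and 3 without a minimum FPKM. Of 14 tested genes of fatty acid synthesis, 3 fell, 1 rose and 10 were not called, beside 8.99% of all tested genes that fell and 12.3% that rose. So few calls are no result about this list. Of 21 genes of lipid uptake and storage, 6 rose and 2 fell, beside the same 12.3% and 8.99% of all tested genes. Fabp3 measured 47.2 and 48.6 FPKM at 5 µM and 101 and 103 at 10 µM (log2 change 1.08, SE 0.045, limma adjusted p = 0.000438); this fatty acid carrier had 7.09 and 7.33 FPKM in PBS. Acsl1 had 12.4 and 13.04 FPKM at 5 µM and 28.2 and 26.2 at 10 µM (log2 change 1.04, SE 0.088, limma adjusted p = 0.00193); the enzyme activates fatty acids with coenzyme A. Mgll measured 9.88 and 9.52 FPKM at 5 µM and 20.2 and 22.3 at 10 µM (log2 change 1.06, SE 0.069, limma adjusted p = 0.0011); the lipase releases fatty acids from monoglycerides, and PBS values were 1.22 and 1.39 FPKM. Lpl had 27.4 and 28.97 FPKM at 5 µM and 12.3 and 12.3 at 10 µM (log2 change -1.13, SE 0.047, limma adjusted p = 0.000438). Fabp3, Acsl1 and Mgll were higher in both 10 µM samples, and Lpl, which encodes lipoprotein lipase, was lower, in each case with no overlap.

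Some genes of mitosis and DNA replication fell at 10 µM, and most tested members were not called. Only 20 of 41 mitosis genes were above the minimum, of which 9 fell, 11 were not called and none rose, with a median of -0.28. Of the 9, 4 met the minimum through the 5 µM samples alone, so the count is no measure of the whole list. Promoters of Top2a and Cdc20, fallen members with the motif, are printed with the cell cycle homology region in capitals, TTTGAA or its reverse complement.
Top2a, chr11:99024190-99024240, minus strand: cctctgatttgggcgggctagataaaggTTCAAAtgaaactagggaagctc
Cdc20, chr4:118437344-118437394, minus strand: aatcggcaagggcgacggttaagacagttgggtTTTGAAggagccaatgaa
Searched on both strands, the letters were present for 6 of 6 fallen members with a promoter, for 6 of 9 not called and for 14.1% of all tested genes with a promoter. Ccna2 measured 1.32 and 1.12 FPKM at 5 µM and 0.507 and 0.483 at 10 µM (log2 change -0.57, SE 0.083, limma adjusted p = 0.00842). Cyclin A2 acts in S phase and mitosis, and PBS values were 3.97 and 3.97 FPKM. Ccna2 met the minimum through the 5 µM samples alone, so it could only have been lower at 10 µM. Top2a, topoisomerase II alpha, measured 2.10 and 1.99 FPKM at 5 µM and 1.15 and 0.837 at 10 µM, and its call was lost without the first or the second 5 µM sample (highest limma adjusted p = 0.0567). Cdc20, an activator of the anaphase-promoting complex, measured 3.33 and 2.63 FPKM at 5 µM and 1.75 and 1.83 at 10 µM, and its call was lost without the first 5 µM sample (limma adjusted p = 0.107), without the first or the second 10 µM sample and without a minimum FPKM. Mitosis falls numbered 1 and 4 without the first and the second 5 µM sample, 6 and 3 without the first and the second 10 µM sample, 3 without a minimum FPKM, 2 with a minimum of 5 FPKM and 4 with the 4 KN93 samples alone. Of 29 tested genes of DNA replication, 8 fell, 1 rose and 20 were not called, with a median of -0.21. The rise was in Cdt1, a licensing factor of replication origins, and its call was lost without the first or the second 5 µM sample (highest limma adjusted p = 0.0505). The 8 were 1 and 2 without the first and the second 5 µM sample, 3 and 4 without the first and the second 10 µM sample, 1 without a minimum FPKM, 5 with a minimum of 5 FPKM and 4 with the 4 KN93 samples alone.

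Some listed transcripts of the mitochondrial genome and of the nuclear-encoded respiratory chain fell at 10 µM, and no listed member rose. Cox6a2, whose steep rise is described above, also encodes a respiratory chain subunit but was not on the list. Of 13 mitochondrial protein genes, 7 fell and 6 were not called, with a median of -0.47 that was -1.07 without the first and -0.42 without the second 5 µM sample, and -0.64 and -0.38 without the first and the second 10 µM sample. mt-Nd1 had 387 and 320.1 FPKM at 5 µM and 147 and 157 at 10 µM (log2 change -1.21, SE 0.10, limma adjusted p = 0.00192); it encodes a subunit of complex I, and PBS values were 504 and 542 FPKM. mt-Cytb measured 445 and 377 FPKM at 5 µM and 216 and 229 at 10 µM (log2 change -0.88, SE 0.088, limma adjusted p = 0.00308). mt-Nd5 had 322 and 279 FPKM at 5 µM and 174 and 171 at 10 µM (log2 change -0.80, SE 0.076, limma adjusted p = 0.00269). All 3 genes had lower values in both 10 µM samples than in either 5 µM sample. Of 47 listed nuclear-encoded subunits, 14 fell and 33 were not called, with a median of -0.16. Ndufs8 measured 46.7 and 48.7 FPKM at 5 µM and 30.2 and 32.5 at 10 µM (log2 change -0.59, SE 0.054, limma adjusted p = 0.00235). Ndufa4 had 34.1 and 32.2 FPKM at 5 µM and 20.3 and 22.8 at 10 µM (log2 change -0.60, SE 0.069, limma adjusted p = 0.00442). The nuclear count was 3 and 2 without the first and the second 5 µM sample, 6 without the first 10 µM sample and 7 without a minimum FPKM.

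Lysosomal genes included rises and falls, and most tested subunits of the proton pump were not called. Of 50 lysosomal genes tested, 10 rose and 13 fell, with a median of -0.06; the split was 5 and 15 with median-of-ratios scaling, and 1 and 8, 1 and 5, 6 and 9, and 2 and 11 without the first 5 µM, the second 5 µM, the first 10 µM and the second 10 µM sample. Without a minimum FPKM 4 rose, and with no intensity trend 5. The share of all tested genes was 12.3% for rises and 8.99% for falls. Sgsh measured 36.1 and 38.1 FPKM at 5 µM and 19.9 and 21.2 at 10 µM (log2 change -0.82, SE 0.063, limma adjusted p = 0.00148). Gusb had 119 and 119 FPKM at 5 µM and 73.96 and 78.2 at 10 µM (log2 change -0.64, SE 0.048, limma adjusted p = 0.00143). Both encode enzymes that degrade glycosaminoglycans, and for both genes the 5 µM and 10 µM samples did not overlap. Mcoln1, a lysosomal calcium channel, and Npc1, a cholesterol transporter, were among the rises. Of 18 V-ATPase subunits, which acidify the lysosome, 7 rose, 10 were not called and 1 fell, Atp6v0a1 with 37.1 and 39.1 FPKM at 5 µM and 28.7 and 27.5 at 10 µM (log2 change -0.43, SE 0.057, limma adjusted p = 0.0069). The V-ATPase count of rises was 2 and 0 without the first and the second 5 µM sample, 3 without the second 10 µM sample and 4 without a minimum FPKM.

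The kinases that KN93 is known to inhibit were measured at low level. Camk2g measured 5.67 and 5.597 FPKM at 5 µM and 5.27 and 4.79 at 10 µM (log2 change -0.14, SE 0.059, limma adjusted p = 0.151). Camk2d had 3.78 and 3.73 FPKM at 5 µM and 4.19 and 3.74 at 10 µM (log2 change 0.06, SE 0.067, limma adjusted p = 0.549). Neither gene was called, and the Camk2d change was -0.0043 without the first 10 µM sample. Camk2a, Camk2b and Camk4 were below the minimum, at 0.0610 and 0.0532, 0.270 and 0.344, and 0.0215 and 0.0410 FPKM at 5 µM and 0.0554 and 0.0519, 0.394 and 0.374, and 0.0101 and 0.0229 FPKM at 10 µM. Of 37 tested genes of CaMK and calcium signalling, 6 fell and 1 rose, with a median of -0.04, no more than the 21.3% called of all genes tested. Camk1d measured 7.92 and 8.38 FPKM at 5 µM and 4.78 and 4.83 at 10 µM (log2 change -0.66, SE 0.060, limma adjusted p = 0.00235); it encodes a CaMKI kinase. Marcks had 29.9 and 28.98 FPKM at 5 µM and 20.1 and 20.3 at 10 µM (log2 change -0.52, SE 0.048, limma adjusted p = 0.00239); its product is a substrate of protein kinase C that binds calmodulin. Camkk2 measured 5.57 and 5.996 FPKM at 5 µM and 8.24 and 8.12 at 10 µM (log2 change 0.44, SE 0.062, limma adjusted p = 0.0078). This kinase activates CaMKI, CaMKIV and AMPK, and its gene was the 1 member that rose. The falls numbered 2 without the first or the second 5 µM sample and 4 without the first 10 µM sample, and 4 members rose with voom on recovered fragments. Immediate early genes, which respond within a short time of a signal, were divided, 6 risen and 4 fallen of 22 tested. Over all tested genes, 12.3% rose and 8.99% fell. Egr1 had 5.503 and 4.76 FPKM at 5 µM and 9.59 and 8.93 at 10 µM (log2 change 0.75, SE 0.089, limma adjusted p = 0.0049). Junb measured 29.1 and 28.3 FPKM at 5 µM and 36.8 and 38.3 at 10 µM (log2 change 0.38, SE 0.048, limma adjusted p = 0.00592). Both values at 10 µM were above both at 5 µM for Egr1 and Junb, and Fos, their relative in the response, measured 14.2 and 11.3 FPKM at 5 µM and 7.83 and 7.07 at 10 µM, a fall whose call was lost without the second 10 µM sample (limma adjusted p = 0.0528). Rises of this list numbered 3 without the second 5 µM or the second 10 µM sample and without a minimum FPKM, and falls 1, 1 and 2 without the first 5 µM, the second 5 µM and the second 10 µM sample.

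**Figure D4:**
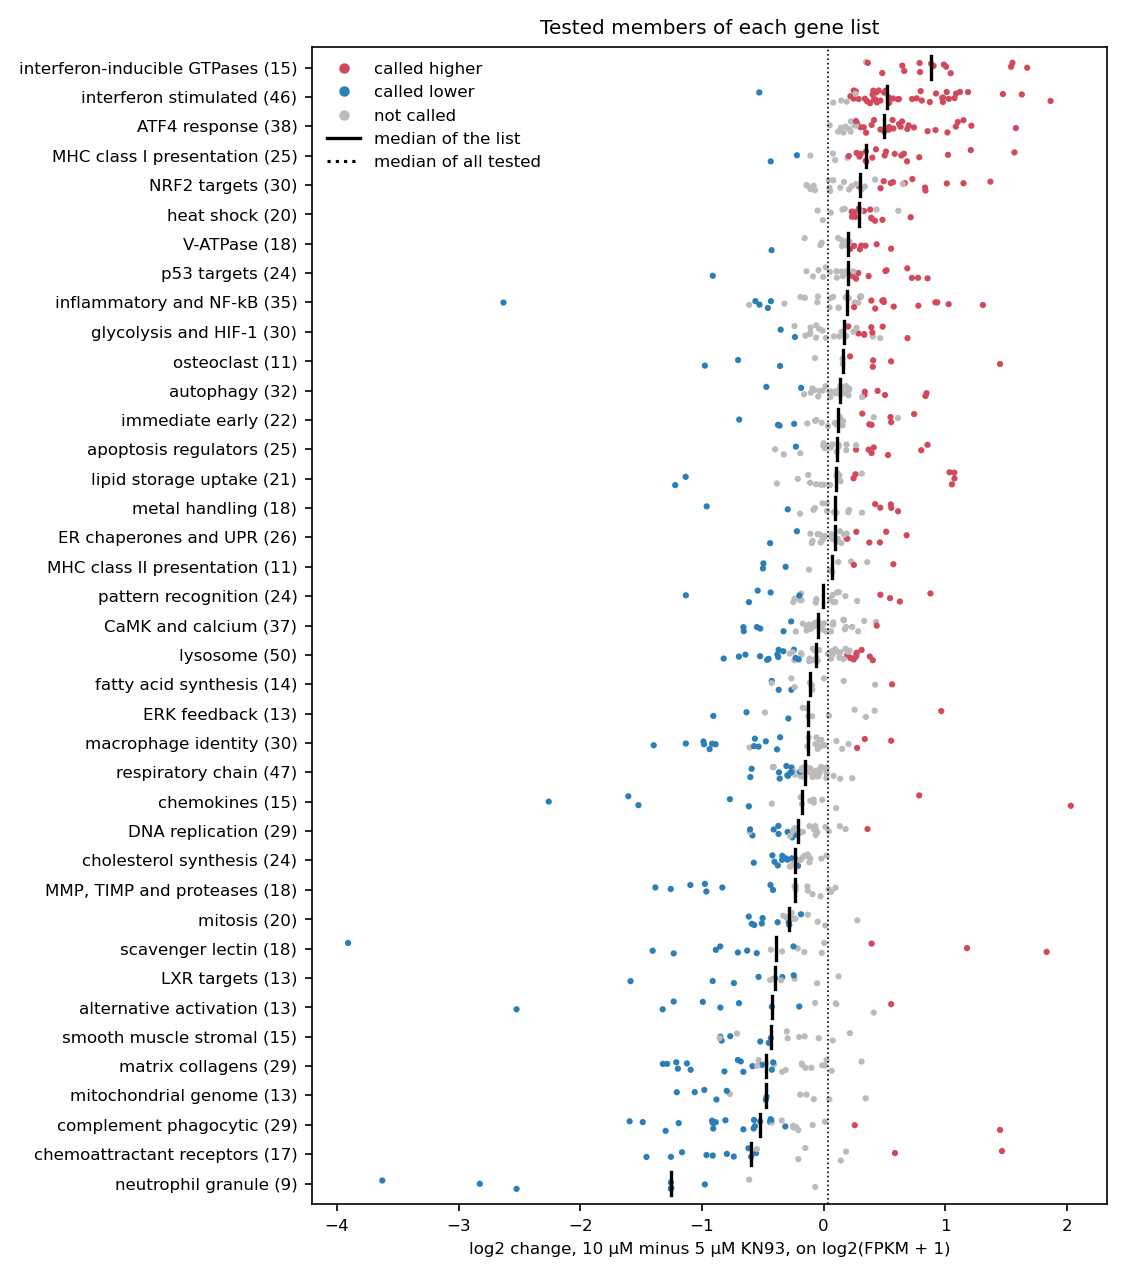
Each point is a tested gene, placed by its log2 change between 10 µM and 5 µM on the log2(FPKM + 1) scale, on 1 line per list, for the lists with at least 5 tested members (number in parentheses) and sorted by the median, drawn as a black bar. Interferon-inducible GTPases have the highest median (0.89) and the dotted line is the median of all tested genes (0.04).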

How the data were processed

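Total RNA of 6 samples, 2 per group, was sequenced on Illumina libraries, per the labels' protocols. The authors deposited FPKM values in 1 table with a column per sample; the unit comes from the table's name and its values. Reads were aligned to GRCm38, and HISAT2 is named, per the submitters' processing notes. Which tool counted fragments, with which gene models, and how strand and shared fragments were treated is not given in the sources used here. Column names carry a prefix, DXM, that no label explains.

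Genes at 1 FPKM or more in at least 2 of the 4 KN93 samples were kept (12222). A linear model of log2(FPKM + 1) was made in limma (version 3.58.1, R 4.3.3) from all 6 samples with the group as factor, an intensity trend, two-sided tests and Benjamini-Hochberg adjustment over all 12222 genes; the call was an adjusted p under 0.05. The 2 PBS samples entered the fit only for the spread, and their values are given beside the others. The fit takes 1 spread per gene for all groups, yet replicates differed least with PBS. The median chi-square of fragments between the 2 samples of a group was 1.20 with PBS. It was 1.42 at 5 µM and 1.96 at 10 µM, against 0.455 for counting noise alone. The 5 µM samples are shared between this comparison and any of 5 µM with PBS, so the order of the 3 groups is a description. The fit had 3 residual degrees of freedom and a median prior of 2.76. The script was tested on simulated data. Coordinates and exon lengths of 12217 genes came from GENCODE for GRCm38. Exon lengths turned 99.1% to 99.2% of low values into whole fragments within 0.1 fragment, and voom on these fragments called 3170 genes. Promoters are RefSeq's, GRCm38.p6, from 250 bases before to 50 after the start, found for 8487 tested genes. Other motifs were searched the same way among these. TCACGTGA (2.44% of them) was present for 2 of 6 risen and 0 of 11 fallen lysosomal genes and 0 of 3 risen V-ATPase subunits. TCACNCCAC (1.38%) was present for 1 of 9 fallen cholesterol genes and TGACNNNGC (17.3%) for 4 of 9 risen NRF2 targets. ACGTG (30.1%) was present for 6 of 7 risen and 2 of 2 fallen genes of glycolysis and hypoxia.

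Named genes were the 12 largest rises, the 12 largest falls and up to 4 members per list with the smallest p, all called without overlap between doses and none with a predicted-gene name; for lists with no such member, the 2 tested members with the highest mean FPKM; and the CaMKII and CaMKIV genes, called or not. Of the 171 that met this rule, 166 were called, and the text gives a selection. Genes listed by symbol alone, or whose sentence says so, were picked after their values were seen. The members and lists were chosen with earlier results of these data known, and lists are described by counts and medians without a test. Alternatives were another pseudocount, other minimums, other scalings, no intensity trend, the 4 KN93 samples alone, a replicate block, voom, a fold minimum and each sample left out.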

Additional observations from a re-analysis of the deposited data

How the results depend on the processing

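The 2599 calls, 1500 rises and 1099 falls became 1350, 734 and 616 without a minimum FPKM and 191, 98 and 93 with a log2 change of at least 1 as well. Leaving out 1 sample gave 939 to 1968 calls, 468 to 1090 rises and 471 to 879 falls, the lowest without the second 5 µM sample; the lone sample left in a group is then assumed to vary like the others. Voom on recovered fragments called 3170 genes, a pseudocount of 0.1 FPKM 2520, no intensity trend 2383 and the 4 KN93 samples alone 1977. Samples with the same suffix in their titles showed little shared deviation between groups: the correlations of deviations were 0.014, 0.004 and 0.035. These values cannot show whether cultures or animals were paired. The fit with the replicate block called 2160 genes. Of 166 called named genes, 128 kept the call under each of the 16 alternatives that tested them and 38 lost it under at least 1, of which 20 lost it only when a KN93 sample was left out. None of the 2599 calls reversed with median-of-ratios scaling, quantile normalization or voom. The other alternatives could not reverse a call, because the fitted change stays the same or because no call overlapped between doses. The uncalled Camk2d reversed to -0.0043 without the first 10 µM sample and ranged up to 0.13 with another sample left out. With 2 samples per group, genes of 1 to 3 FPKM were called in 11.7% of cases and genes of at least 100 FPKM in 39.1%, so a missed call at low level does not show equal values.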

Other observations

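A few members of further lists were called, beside 12.3% of all tested genes that rose and 8.99% that fell, and such counts are no result about a list. Of 32 tested autophagy genes, 6 rose and 2 fell, and Optn had 10.4 and 9.79 FPKM at 5 µM and 18.4 and 19.5 at 10 µM (log2 change 0.85, SE 0.060, limma adjusted p = 0.00128); it encodes optineurin, a receptor for damaged mitochondria. Ulk2 measured 12.2 and 12.3 FPKM at 5 µM and 8.71 and 8.45 at 10 µM (log2 change -0.47, SE 0.046, limma adjusted p = 0.00281); it encodes a kinase that starts autophagy. Of 26 chaperones and regulators of the endoplasmic reticulum, 6 rose and 2 fell, with a median of 0.09. Herpud1 had 17.6 and 16.8 FPKM at 5 µM and 25.6 and 24.3 at 10 µM (log2 change 0.52, SE 0.054, limma adjusted p = 0.0035); its product takes part in degradation of misfolded proteins. Of 25 regulators of apoptosis, 7 rose and 1 fell, and Bcl2a1d measured 35.3 and 34.5 FPKM at 5 µM and 60.4 and 62.9 at 10 µM (log2 change 0.80, SE 0.045, limma adjusted p = 0.000858); it belongs to a family of near copies that can share fragments. Of 18 genes of metal handling, 5 rose and 2 fell. Slc30a1 had 10.01 and 9.76 FPKM at 5 µM and 15.7 and 15.6 at 10 µM (log2 change 0.61, SE 0.046, limma adjusted p = 0.00143); it exports zinc. Slc40a1 measured 10.6 and 11.5 FPKM at 5 µM and 5.13 and 5.28 at 10 µM (log2 change -0.96, SE 0.072, limma adjusted p = 0.00143); it encodes ferroportin, the iron exporter. Of 13 genes of ERK feedback, 3 fell and 1 rose. Dusp6 had 17.3 and 13.7 FPKM at 5 µM and 8.03 and 7.53 at 10 µM (log2 change -0.91, SE 0.12, limma adjusted p = 0.00635). Dusp4 measured 6.21 and 4.91 FPKM at 5 µM and 12.8 and 10.8 at 10 µM (log2 change 0.97, SE 0.13, limma adjusted p = 0.00717). Both encode phosphatases that act on MAP kinases. Without a minimum FPKM, 3 autophagy genes, 2 apoptosis genes and 1 gene of metal handling rose, and 1 gene of ERK feedback fell. Without the second 5 µM sample, 3 autophagy genes, 2 apoptosis genes and 1 gene of metal handling rose, and without the first 5 µM sample 3, 2 and 3. Without the first 10 µM sample, 4 apoptosis genes and 1 gene of metal handling rose, and without the second 3 and 2. Without the first 5 µM sample 3 genes of the endoplasmic reticulum rose, and without that sample or the second 10 µM sample 1 gene of ERK feedback fell.

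Large differences that were not called came mostly from processed pseudogenes. Of the 10 uncalled genes with the largest fitted change, 8 were of this biotype, and they were picked after their values were seen. Gm4294 had 8.16 and 5.35 FPKM at 5 µM and 4.58 and 213.9 at 10 µM. Gm7206 had 2.54 and 3.20 FPKM at 5 µM and 78.7 and 2.64 at 10 µM. In both cases 1 sample of the 10 µM group stood far above the other, and a single sample is not a difference between doses. The largest called rises of any biotype were also processed pseudogenes with predicted names, picked after their values were seen: Gm10108 had 2.26 and 2.38 FPKM at 5 µM and 39.03 and 34.9 at 10 µM, and Gm5619 had 0.749 and 0.475 at 5 µM and 9.80 and 17.1 at 10 µM. Their fragments may be shared with parent genes, and Gm5619 met the minimum through the 10 µM samples alone, so it could only have been higher there.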
